A study of Homo sapiens with 6 samples.

Results

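The genes described here encode the proteins of the mitochondrial ribosome. They are the rows of the deposited gene table whose symbol is MRPL followed by a number, or MRPS followed by a number and at most 1 letter from A to C. This name rule found 74 of 16311 genes, 48 named for the large subunit (MRPL) and 26 named for the small subunit (MRPS). The rows were chosen by symbol, without an expression value, but the family as a whole was selected on the FIR against untreated counts of its large and small subunit genes, which were known from earlier work on these data. Its counts and medians in that comparison are therefore a description, and nothing is read from them as a test.

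RNA was sequenced from LNCaP cells, a widely used line derived from a human prostate adenocarcinoma that responds to androgen, grown in RPMI1640 with serum. The 3 FIR libraries came from cells given radiation to a cumulative 40 Gy, and the 3 untreated libraries from cells that received none. The labels do not spell out FIR, and the series title speaks of radiation-induced cells of a neuroendocrine-like kind in prostate cancer. Both groups share the cell line and the medium, and the labels give no clone, schedule or time of harvest.

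Mitochondria carry their own ribosomes, which translate the few messenger RNAs that the mitochondrial genome encodes, all for subunits of the respiratory chain and ATP synthase. The ribosomal RNAs of the small and the large subunit, 12S and 16S, are transcribed from mitochondrial DNA, whereas every ribosomal protein is encoded in the nucleus, made in the cytosol and imported. Some of these proteins descend from bacterial ribosomal proteins and others occur only in mitochondria.

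The promoters of the family were searched first, since they are a property that the counts did not enter. RefSeq promoters on GRCh38.p14, each reaching from 250 bases before to 50 bases after the transcription start, were matched by symbol for 66 of the 74 genes, among them MRPS36 under its RefSeq symbol KGD4. MRPL2, MRPL10, MRPL13, MRPL15, MRPL21, MRPL23, MRPL35 and MRPS28 had no match. Each motif was searched as fixed letters on both strands.

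The letters CCGGAAG, the core bound by ETS factors such as GABP, stood in the promoters of 28 of the 66 genes, or 42.4%. The same letters stood in 21.6% of the 10504 genes of the table with a promoter and in 10.3% of all 35116 RefSeq promoters. The following 80 bases directly before the start of 6 genes are shown because they carry these letters, in capitals, 1 to 3 times. They belong to genes that were called lower, not called and called higher. CTTCCGG is the same motif on the other strand.
MRPS26, chr20:3045972-3046051, plus strand: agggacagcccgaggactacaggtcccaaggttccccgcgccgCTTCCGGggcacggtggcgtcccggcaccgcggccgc
MRPL47, chr3:179604639-179604718, minus strand: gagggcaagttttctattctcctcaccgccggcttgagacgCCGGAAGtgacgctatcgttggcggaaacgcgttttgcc
MRPL20, chr1:1407294-1407373, minus strand: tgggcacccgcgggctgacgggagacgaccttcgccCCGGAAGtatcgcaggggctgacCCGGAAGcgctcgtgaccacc
MRPS34, chr16:1773135-1773214, minus strand: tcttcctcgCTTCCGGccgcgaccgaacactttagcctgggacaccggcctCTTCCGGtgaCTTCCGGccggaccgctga
MRPL27, chr17:50373185-50373264, minus strand: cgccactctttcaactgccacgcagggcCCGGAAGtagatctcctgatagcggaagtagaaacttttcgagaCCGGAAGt
MRPL33, chr2:27771639-27771718, plus strand: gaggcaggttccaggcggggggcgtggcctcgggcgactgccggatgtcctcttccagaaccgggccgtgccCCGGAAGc

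The letters ATGGCGGC, the core of the site bound by YY1, stood in the promoters of 17 of the 66 genes, or 25.8%. They stood in 7.14% of the genes of the table with a promoter. Of all RefSeq promoters, counted singly, 2.996% held them. In 15 of the 17 genes the match was in the direction of transcription, 9 to 38 bases after the start. In 14 of the 17 its first 3 letters were the annotated start codon, so the same bases also encode the first residues of the protein. The next stretches of 30 bases show the match, in capitals, in 4 genes that were called lower (MRPS15, MRPL9, MRPL1 and MRPL22) and in 2 that were not called (MRPS14 and MRPS30). In MRPS15 the match is not at the annotated start codon.
MRPS15, chr1:36464339-36464368, minus strand: cctgggccagcATGGCGGCgcccatgtaac
MRPL9, chr1:151763461-151763490, minus strand: tgcctgtgaacATGGCGGCgcccgttgtca
MRPL1, chr4:77862838-77862867, plus strand: gagtgcccaacATGGCGGCggccgtaaggt
MRPL22, chr5:154941093-154941122, plus strand: gtagcgggagggcgaaagATGGCGGCggca
MRPS14, chr1:175023390-175023419, minus strand: tagcggacaacATGGCGGCcttcatgctgg
MRPS30, chr5:44808952-44808981, plus strand: cgcgggcaaagATGGCGGCggccaggtgtt

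Of the 5 other motifs 4 stood in a smaller share of the family than of the table's genes. The palindrome bound by NRF1 was found in 1 promoter, that of MRPL17, or 1.52% against 2.77% of the table's genes. The SP1 letters GGGCGG stood in 60.6% against 75.4%, the CCAAT box in 33.3% against 43.0%, and the CHR element TTTGAA, known from cell cycle genes, in 7.58% against 13.4%. The E-box CACGTG stood in 15.2% against 12.5%. No 2 of these letter strings contain one another, but matches can share bases, and a promoter can hold several.

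**Figure D1:**
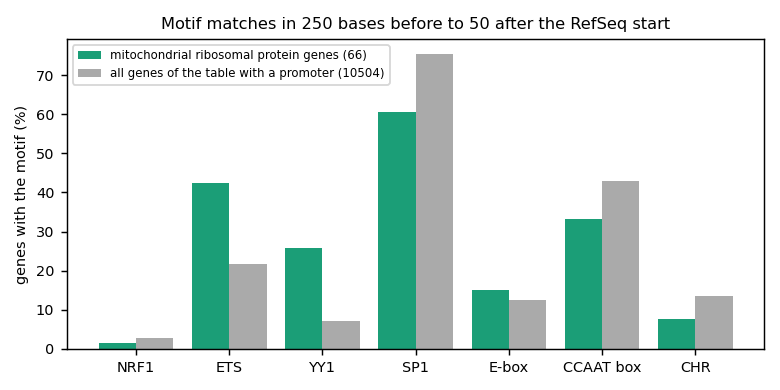
Percent of genes with each motif, searched on both strands from 250 bases before to 50 after the RefSeq start, for 66 mitochondrial ribosomal protein genes (green) and for 10504 genes of the table with a promoter (grey). The green bar is above the grey one for ETS (42.4 against 21.6), YY1 (25.8 against 7.14) and the E-box (15.2 against 12.5), and below it for the other motifs.

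Both subunits held the ETS and YY1 motifs. Of the genes with a promoter, 17 of 41 large and 11 of 25 small subunit genes had the ETS letters, and 10 of 41 and 7 of 25 the YY1 letters. In all, 40 of the 66, or 60.6%, had at least 1 of these motifs, against 26.9% of the table's genes, and 5 had both. The presence of a motif is a match of letters and does not show that a factor was bound.

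The 3 FIR libraries held 15703483 to 16542096 reads over the listed genes, and the 3 untreated libraries 16805679 to 21004697. Levels are given in CPM, a gene's count brought to a common library size after TMM scaling, which evens out differences in composition between libraries. In these libraries 3 reads correspond to 0.139 to 0.194 CPM, and the family's mean levels over the 6 libraries ran from 5.08 to 235 CPM, so all 74 genes were counted far above that floor. All 74 were tested, and none rested on the authors' removal of low genes. The labels number the replicates without saying how cultures were separated, so a p-value here reflects only how much these libraries varied, a spread that could be technical. All 10 markers of luminal prostate epithelium listed for the check had rows, and summed to 8732 to 9674 CPM in FIR libraries and 8361 to 9108 CPM in untreated libraries. By the edgeR test used throughout, 7 of the 10 were higher, KLK3 and HOXB13 were lower and KRT18 passed in neither direction. Of 5 leukocyte markers 0 had a row. Of 3 basal markers KRT14 had one, at 2.79 to 4.16 CPM in FIR libraries and 1.07 to 2.04 CPM in untreated libraries. Of 3 endothelial markers VWF had one, at 5.08 to 6.22 CPM in FIR libraries and 28.8 to 40.6 CPM in untreated libraries, while PECAM1 and CDH5 had none. Of 5 fibroblast markers COL1A1 and COL3A1 had rows, with sums of 7.04 to 11.9 CPM in FIR libraries and 23.4 to 25.6 CPM in untreated libraries. COL1A1 was lower, at a mean of 5.33 CPM in FIR libraries and 24.0 CPM in untreated libraries, and COL3A1 higher, at 4.47 CPM in FIR libraries and 0.401 CPM in untreated libraries. The part of these genes in the results was not tested.

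Most of the family was lower in FIR cells, by modest amounts. A gene is called here when its adjusted p in edgeR's quasi-likelihood test, with Benjamini-Hochberg adjustment over all 16311 genes, is under 0.05. Of the 74 genes 44 were called lower, 2 were called higher (MRPL33 and MRPL49) and 28 were not called. Over all genes 48.7% were called, 23.4% lower and 25.4% higher. The median log2 fold change, FIR over untreated, was -0.30 over the family and 0.01 over all genes, and the family's values ran from -0.83 to 0.42. None of the 74 passed a 2-fold change, and 10 passed a 1.5-fold change, which 33.2% of all genes did. Because RNA was taken from whole cultures, fewer cells with a given level and less RNA per cell cannot be told apart.

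The direction was shared more widely than the calls. The log2 fold change was below 0 in 69 of the 74 genes, and in 8058 of all 16311 genes. In 49 genes all 3 FIR libraries lay below all 3 untreated libraries, an arrangement that 27.5% of all genes showed. In 3 genes (MRPL32, MRPL33 and MRPL49) all FIR libraries lay above, as they did in 29.4% of all genes, and in 22 the groups overlapped. Over all genes 56.9% showed no overlap in either direction. The authors' deposited table makes the same call for all 74, with 2 higher and 44 lower.

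**Figure D2:**
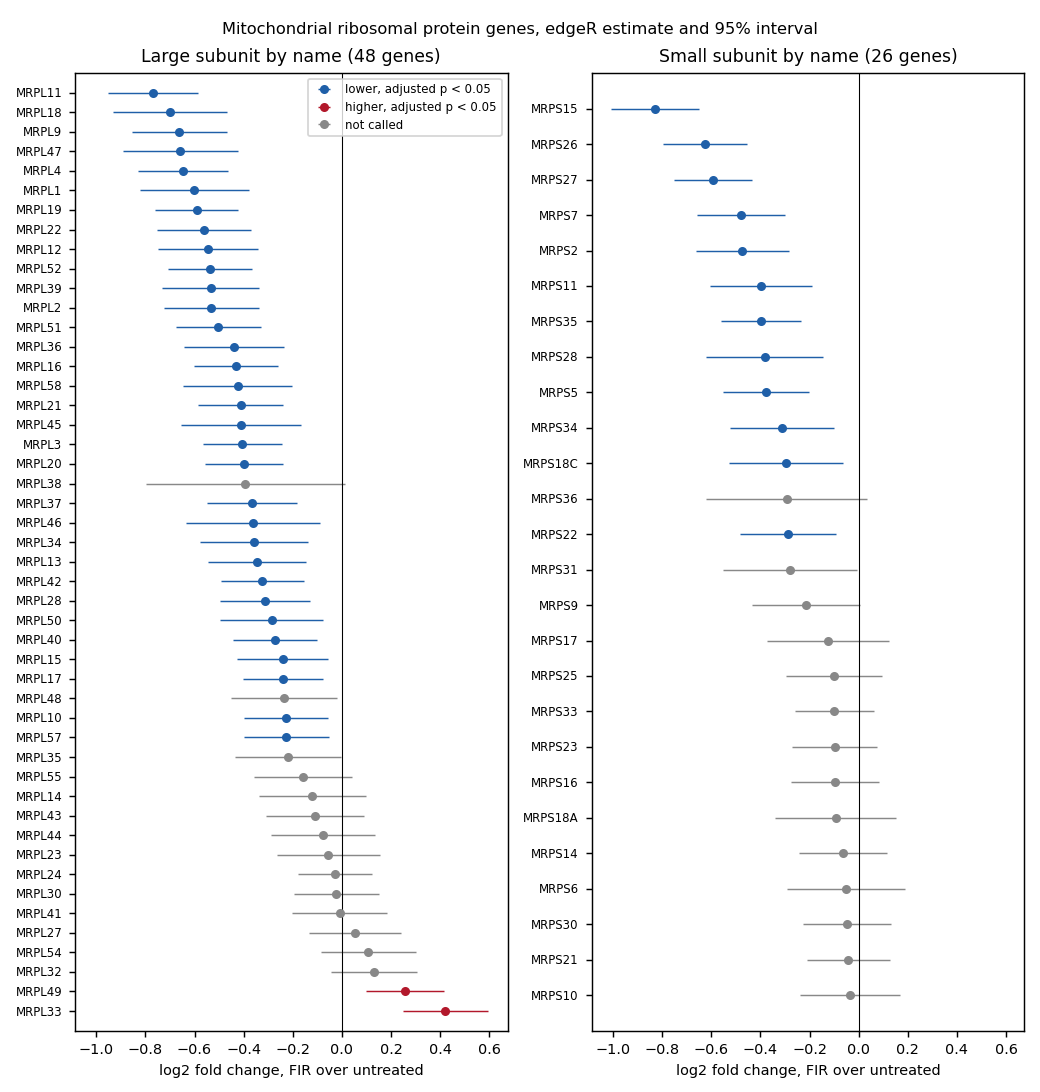
Log2 fold change, FIR over untreated, of the 48 large subunit and 26 small subunit genes by name, each point an edgeR estimate over 3 against 3 libraries with its 95% interval, sorted from lowest to highest. The points lie left of 0 in 43 of 48 large and 26 of 26 small subunit genes, and only MRPL33 and MRPL49 are called higher. Of all 16311 genes 8058 have an estimate below 0.

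Most estimates of both subunits were below 0. Of 48 large subunit genes 32 were lower, 2 higher and 14 not called, with a median log2 fold change of -0.35. Of 26 small subunit genes 12 were lower, 0 higher and 14 not called, with a median of -0.28. Lower were 66.7% of the large and 46.2% of the small subunit genes, against 23.4% of all genes. Higher were 25.4% of all genes, whose median log2 fold change was 0.01. All 26 small subunit estimates were below 0, so 0 were higher at an unadjusted p under 0.05 as well, and DESeq2 and limma-voom also called 0 higher. The difference between the subunits was not tested, since the genes of a subunit are not replicates.

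Names and structure part ways for 3 genes. MRPS30 and MRPS18A carry small subunit names but sit in the large subunit of the human mitochondrial ribosome, and MRPS36, now KGD4, is assigned to the 2-oxoglutarate dehydrogenase complex. None of these was called: MRPS30 had a log2 fold change of -0.05, MRPS18A of -0.09 and MRPS36 of -0.29. Sorted by structure, 32 of 50 large subunit genes and 12 of 23 small subunit genes were lower, with medians of -0.34 and -0.29. These shares were 64% and 52.2%, against 23.4% of all genes.

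Summed over each subunit, the family was lower in FIR cells by similar shares. The 48 large subunit genes together had 3119, 3120 and 3225 CPM in the FIR libraries, against 3965, 3767 and 3619 CPM in the untreated libraries. The 26 small subunit genes together had 1674, 1697 and 1727 CPM in the FIR libraries, against 2224, 2120.4 and 1967 CPM in the untreated libraries. Neither sum overlapped between groups, and the FIR mean was 0.834 of the untreated mean for the large and 0.808 for the small subunit.

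The ratio of large to small subunit CPM was 1.86, 1.84 and 1.87 in the FIR libraries and 1.78, 1.78 and 1.84 in the untreated libraries, so the groups overlapped at 1 library each. The family took 0.473% to 0.481% of the reads in FIR libraries and 0.570% to 0.627% in untreated libraries. Within the untreated group the first library was the highest of the 3 for 50 of the 74 genes and the third the lowest for 45. Without the first untreated library 37 genes were called lower, and without the third 47. Of all genes 3491 and 3976 were lower in these fits, against 3811 in the main fit.

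**Figure D3:**
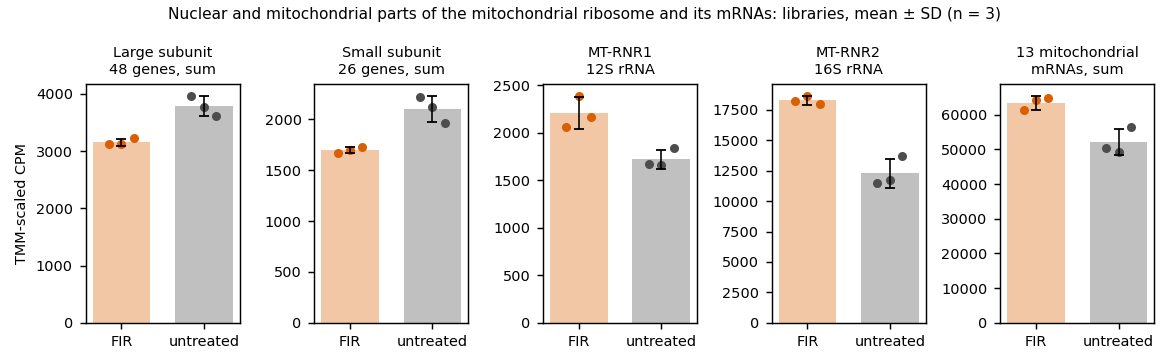
Summed CPM of the large subunit genes, the small subunit genes and the 13 mitochondrial mRNAs, and CPM of the 12S and 16S ribosomal RNAs, with 1 point per library, bars for the mean and error bars for the SD over 3 FIR and 3 untreated libraries. The protein sums are lower in FIR libraries (large 3154 against 3784 CPM), and both ribosomal RNAs and the mRNA sum are higher.

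The stalk of the large subunit recruits the elongation factors. Its genes MRPL10 and MRPL12, and MRPL11 at its base, were all lower in FIR cells, 3 of 3, against 23.4% of all genes. MRPL11 (chr11:66435075-66466738, minus strand, hg38) had 32.4, 31.0 and 31.1 CPM in FIR libraries, against 57.2, 52.3 and 51.6 CPM in untreated libraries. The groups lay far apart beside the spread within them, and its log2 fold change of -0.77 (SE 0.09, edgeR adjusted p = 3.1e-06) was the lowest of the large subunit. MRPL12, which also binds the mitochondrial RNA polymerase, averaged 34.6 ± 2.86 CPM in FIR libraries and 50.5 ± 4.01 CPM in untreated libraries (SD, n = 3 each), a log2 fold change of -0.55. MRPL10 differed less, with 52.6 ± 2.65 CPM in FIR libraries and 61.6 ± 0.737 CPM in untreated libraries (SD, n = 3 each). Its log2 fold change was -0.23 with an edgeR adjusted p of 0.028, and in 5 of the 14 alternative settings it was no longer called.

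A short list of proteins near the peptidyl transferase centre, where the ribosome joins amino acids, held MRPL2, MRPL3, MRPL4 and MRPL16. Of the 4 listed, 4 were lower, against 23.4% of all genes. The list is not complete. MRPL27, counted below with the central protuberance, was not called, at a log2 fold change of 0.05. MRPL4 had 67.6, 68.7 and 79.4 CPM in FIR libraries, against 120.0, 109 and 109 CPM in untreated libraries. Its log2 fold change was -0.65 (SE 0.09, edgeR adjusted p = 1.9e-05). MRPL3, the most abundant of the 4 by reads, had 112, 110.1 and 101 CPM in FIR libraries, against 143, 146 and 139 CPM in untreated libraries. No library of one group reached the range of the other in any of these 4 genes. MRPL2 and MRPL16 had log2 fold changes of -0.53 and -0.43.

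The polypeptide exit tunnel and its rim pass the new chain to the inner membrane. Of 8 genes of this region 5 were lower (MRPL47, MRPL22, MRPL39, MRPL45 and MRPL17) and 3 were not called (MRPL44, MRPL23 and MRPL24). Lower were thus 62.5%, against 23.4% of all genes. MRPL47, whose promoter is shown above, had 33.8, 27.3 and 29.7 CPM in FIR libraries, against 52.0, 49.96 and 41.3 CPM in untreated libraries, and a log2 fold change of -0.66 (SE 0.11, edgeR adjusted p = 0.00015). MRPL45, which ties the ribosome to the membrane, had a log2 fold change of -0.41. Its only row lies on the alternate sequence KI270857.1, and how reads shared with the copy on the primary chromosome were counted is not given in the sources used here. MRPL24 was the contrast within the region, with 232, 218 and 229 CPM in FIR libraries, against 236, 221 and 235 CPM in untreated libraries. Its log2 fold change was -0.03 with a 95% interval of -0.18 to 0.12.

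The central protuberance faces the small subunit and, in mitochondria, holds a transfer RNA in the place of the bacterial 5S ribosomal RNA. Of its 8 genes 4 were lower (MRPL18, MRPL58, MRPL40 and MRPL46) and 4 were not called (MRPL48, MRPL38, MRPL55 and MRPL27). Lower were thus 50%, against 23.4% of all genes. MRPL18 had 71.2, 73.4 and 85.3 CPM in FIR libraries, against 133, 137 and 103 CPM in untreated libraries. The third library of each group stood closest to the other group, and the log2 fold change was -0.70 (SE 0.11, edgeR adjusted p = 7.4e-05). MRPL58, a peptidyl-tRNA hydrolase that frees stalled chains, had a log2 fold change of -0.43. MRPL38 was the least abundant gene of the family, at 4.39 ± 0.589 CPM in FIR libraries and 5.77 ± 0.495 CPM in untreated libraries (SD, n = 3 each). Its groups did not overlap, but its estimate of -0.39 had an SE of 0.19 and did not pass.

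Other large subunit genes with large differences were MRPL9, MRPL1 and MRPL19. MRPL1 belongs to the stalk that guides used transfer RNA out, and MRPL19 lies at a contact with the small subunit. MRPL9 had 33.2, 31.1 and 37.6 CPM in FIR libraries, against 54.4, 53.5 and 53.3 CPM in untreated libraries, a log2 fold change of -0.66 (SE 0.09, edgeR adjusted p = 2.5e-05). MRPL1 and MRPL19 had log2 fold changes of -0.60 and -0.59. Together with MRPL11, MRPL18, MRPL47, MRPL4, MRPS15, MRPS26 and MRPS27 they are the 10 genes past 1.5-fold, all lower.

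MRPL33 and MRPL49 went the other way. MRPL33 (chr2:27771717-27988087, plus strand), homologue of the bacterial protein L33, had 68.0, 71.6 and 67.6 CPM in FIR libraries, against 49.97, 54.7 and 49.95 CPM in untreated libraries. All FIR libraries lay above all untreated ones, and the log2 fold change was 0.42 (SE 0.08, edgeR adjusted p = 0.00052). Of its exon length 21.1% is shared with BABAM2 on the same strand, a gene at 29.3 and 28.2 CPM in FIR and untreated libraries, so reads in the shared part cannot be assigned to one gene.

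MRPL49 (chr11:65122183-65127371, plus strand), a protein found only in mitochondrial ribosomes, had 191, 190.1 and 201 CPM in FIR libraries, against 171, 163 and 153 CPM in untreated libraries. Its log2 fold change was 0.26 (SE 0.07, edgeR adjusted p = 0.01), and without the second untreated library the adjusted p was 0.0504 and the count of genes called higher was 1. MRPL32 had 105, 90.4 and 93.7 CPM in FIR libraries, against 90.2, 88.8 and 85.3 CPM in untreated libraries. Its groups also did not overlap, by a narrow margin, and its log2 fold change of 0.13 did not pass.

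The small subunit binds the messenger RNA and decodes it. Its genes ran from MRPS15, the lowest estimate of the family, to MRPS10 at -0.04. MRPS15 (chr1:36455718-36464384, minus strand), homologue of the bacterial protein S15, had 71.0, 73.4 and 74.2 CPM in FIR libraries, against 142, 128 and 119 CPM in untreated libraries. The FIR libraries lay within a narrow band well below the untreated ones, and the log2 fold change was -0.83 (SE 0.08, edgeR adjusted p = 1.0e-06), or 0.563-fold.

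MRPS26, a protein specific to mitochondria, had 84.1, 82.9 and 90.5 CPM in FIR libraries, against 142, 126 and 129 CPM in untreated libraries, a log2 fold change of -0.62 (SE 0.08, edgeR adjusted p = 1.3e-05). MRPS27, a pentatricopeptide repeat protein of the subunit, had 146, 151 and 155 CPM in FIR libraries, against 234, 237 and 211 CPM in untreated libraries, a log2 fold change of -0.59 (SE 0.08, edgeR adjusted p = 1.1e-05). In both, as in MRPS15, the groups lay well apart.

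By region the small subunit was mixed. Of 7 genes of its head MRPS7 and MRPS35 were lower, with log2 fold changes of -0.48 and -0.40. This share, 28.6%, is near the 23.4% of all genes called lower. In the head MRPS9, MRPS10, MRPS14, MRPS31 and MRPS33 were not called, from -0.28 to -0.04. Of 4 genes of the platform MRPS11 and MRPS18C were lower, at -0.40 and -0.30, or 50%. The platform genes MRPS6 and MRPS21 were not called, at -0.05 and -0.04. MRPS5, at the entrance of the messenger RNA channel, was lower at -0.38. The name rule found no row for MRPS12, MRPS18B and MRPS24 of this subunit or for MRPL53 of the large one. These genes were therefore not analysed here.

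MRPS34 showed how close some calls were. It had 121, 132 and 151 CPM in FIR libraries, against 189, 162 and 151 CPM in untreated libraries. Its highest FIR library nearly met its lowest untreated one. The log2 fold change was -0.31 (edgeR adjusted p = 0.016), and the adjusted p was 0.0783 without the first untreated library and 0.0882 without the first FIR library.

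**Figure D4:**
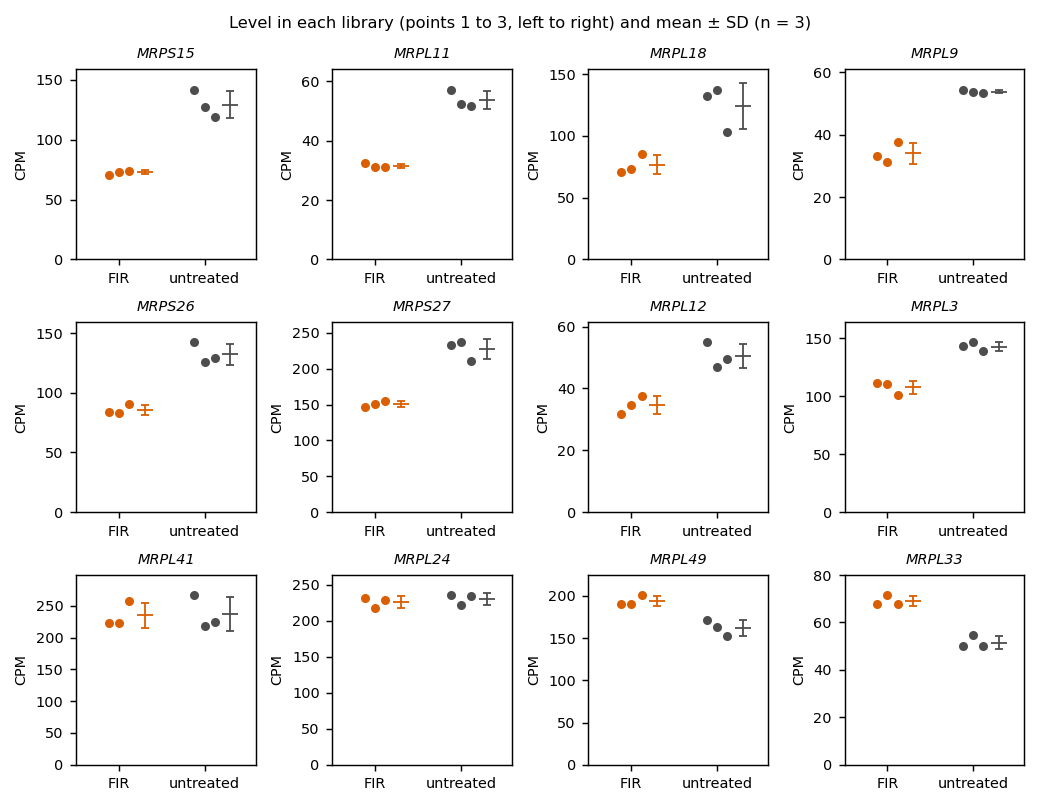
CPM of 12 genes in each library, points 1 to 3 from left to right within a group, with the mean and SD over 3 libraries beside them, on axes that start at 0. The 8 genes of the top 2 rows lie lower in FIR libraries without overlap, MRPL41 and MRPL24 overlap between groups, and MRPL49 and MRPL33 lie higher in FIR libraries.

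Levels per length differed widely within the ribosome. As RPKM, the CPM per kilobase of exon, the untreated means ran from 1.58 for MRPL38 to 406 for MRPL41, with a median of 24.97. MRPL41 (chr9:137551879-137552555, plus strand) had the highest level in both groups, at 403 and 406 RPKM in FIR and untreated libraries. Its 223, 224 and 257 CPM in FIR libraries overlapped with 267, 218 and 224 CPM in untreated libraries, and its log2 fold change was -0.01 with a 95% interval of -0.20 to 0.18. The 5 most abundant genes held 28.4% of the large and 40.3% of the small subunit's CPM. Without the single most abundant gene of each subunit the summed CPM was 0.823 and 0.825 of the untreated sum in the large and small subunit.

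The RNA partners of these proteins were higher, not lower. The 12S ribosomal RNA of the small subunit, MT-RNR1, had 2064, 2391 and 2166.2 CPM in FIR libraries, against 1671, 1660.0 and 1838 CPM in untreated libraries, a log2 fold change of 0.36 (SE 0.08, edgeR adjusted p = 0.0011). The 16S ribosomal RNA of the large subunit, MT-RNR2, had 18237, 18663 and 17952 CPM in FIR libraries, against 11509.8, 11738 and 13674 CPM in untreated libraries, a log2 fold change of 0.57 (SE 0.07, edgeR adjusted p = 1.5e-05). Neither overlapped between groups. Whether ribosomal RNA was removed or poly(A) RNA selected before sequencing is not given in the sources used here, so the levels of ribosomal RNA depend on a step that is unknown.

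The 13 messenger RNAs that these ribosomes translate were also higher or not called. Of the 13, 11 were higher, 0 were lower and MT-ND2 and MT-CO2 were not called, with a median log2 fold change of 0.34. The share called higher was 84.6%, against 25.4% of all genes. No estimate was below 0, so 0 were lower at an unadjusted p under 0.05 too. MT-ND5 and MT-ND6, subunits of respiratory complex I, had the largest estimates, 0.71 and 0.68. Their sum was 61241 to 64960 CPM in FIR libraries and 49298 to 56406 CPM in untreated libraries. The part of this larger mitochondrial share in the lower CPM of the ribosomal protein genes was not tested.

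Mitochondrial ribosomal proteins that carry other names were looked at beside the family. Of 5 measured, the small subunit proteins CHCHD1 and PTCD3 and the large subunit protein GADD45GIP1 were lower, with log2 fold changes of -0.42, -0.33 and -0.47, and AURKAIP1 of the small subunit, at -0.17, was not called. DAP3, a GTP-binding protein of the small subunit head, was higher: it had 279, 252 and 272 CPM in FIR libraries, against 189, 189 and 202 CPM in untreated libraries, a log2 fold change of 0.47 (SE 0.07, edgeR adjusted p = 8.3e-05). Its groups did not overlap. In this list 60% were lower and 20% higher, against 23.4% and 25.4% of all genes.

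**Figure D5:**
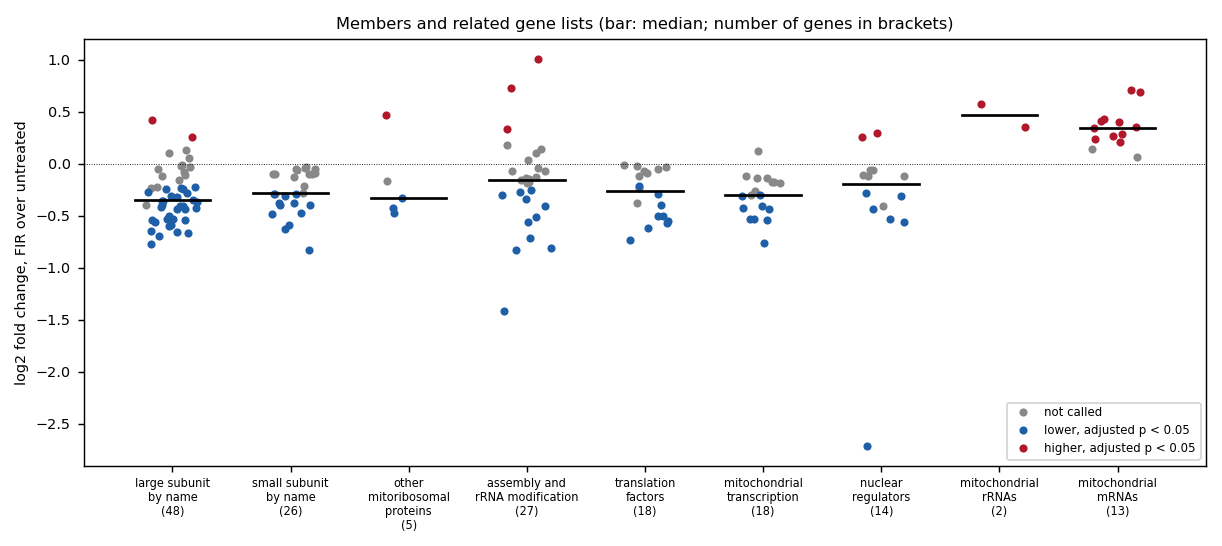
Log2 fold change, FIR over untreated, of the family by subunit name and of 7 related gene lists, each point a gene, black bars the medians and numbers in brackets the genes measured; points are spread sideways for legibility only. Medians lie below 0 for the protein lists (large -0.35, small -0.28) and above 0 for the ribosomal RNAs and the mitochondrial mRNAs (0.34), and the point at -2.72 is PPARGC1A, which is under 1 CPM in all 6 libraries.

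Factors that assemble the ribosome and modify its RNA moved in both directions. Of 27 measured, 11 were lower, 3 higher and 13 not called, with a median log2 fold change of -0.15. The share called, 51.9%, was near the 48.7% of all genes. Lower were 40.7% and higher 11.1%, against 23.4% and 25.4% of all genes. MTG1, a GTPase of large subunit assembly, averaged 10.6 ± 1.32 CPM in FIR libraries and 18.8 ± 1.16 CPM in untreated libraries (SD, n = 3 each), a log2 fold change of -0.83 (edgeR adjusted p = 0.00011). MTERF4, which brings a methyltransferase to the large subunit, had 94.8, 60.9 and 92.0 CPM in FIR libraries, against 44.0, 40.3 and 38.9 CPM in untreated libraries. Its second FIR library stood apart from the other two but above all untreated ones, and the log2 fold change was 1.01 (SE 0.13, edgeR adjusted p = 1.8e-05).

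The translation factors were lower or not called. Of 18 measured, 9 were lower, 0 higher and 9 not called, with a median log2 fold change of -0.26, and none of the 18 estimates was above 0. The 9 lower ones were MTIF2, TUFM, TACO1, OXA1L, MTFMT, PDF, METAP1D, LRPPRC and SLIRP, named with their values in view. Of these only MTIF2 and TUFM are initiation or elongation factors, so the counts describe the mixed list. The share called, 50%, was near the 48.7% of all genes, of which 23.4% were lower and 25.4% higher. MTIF2, the initiation factor that brings the first transfer RNA, had a log2 fold change of -0.74. OXA1L, which inserts the new proteins into the inner membrane, had 86.4, 92.1 and 97.8 CPM in FIR libraries, against 145, 142 and 136 CPM in untreated libraries, a log2 fold change of -0.62 (SE 0.08, edgeR adjusted p = 1.1e-05).

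Of 18 measured genes of mitochondrial transcription and RNA processing 9 were lower, 0 higher and 9 not called, with a median log2 fold change of -0.30. Here too 50% were called, near the 48.7% of all genes, of which 23.4% were lower and 25.4% higher. TBRG4, a regulator of mitochondrial RNA stability, had 85.6, 92.3 and 93.8 CPM in FIR libraries, against 169, 156 and 137 CPM in untreated libraries, a log2 fold change of -0.77 (SE 0.09, edgeR adjusted p = 4.0e-06). KIAA0391, the nuclease subunit of mitochondrial RNase P, had a log2 fold change of -0.54 with an edgeR adjusted p of 0.014, which was 0.0746 without the second untreated library and 0.0652 without the first FIR library.

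Among 14 nuclear regulators of mitochondrial genes 6 were lower, 2 higher and 6 not called, with a median log2 fold change of -0.20. Lower were 42.9% and higher 14.3%, against 23.4% and 25.4% of all genes. PPRC1, a coactivator of NRF1, had a log2 fold change of -0.56, and TFAM, which packages mitochondrial DNA and starts its transcription, of -0.53. Factors that bind the ETS, NRF1, YY1, SP1 and E-box motifs are given here after their values were seen. None is given for the CCAAT box or the CHR element. GABPA, the ETS subunit of GABP, averaged 32.4 ± 1.82 CPM in FIR libraries and 39.3 ± 2.53 CPM in untreated libraries (SD, n = 3 each), a log2 fold change of -0.28 that passed the test. Its partners GABPB1 and GABPB2, both at -0.12, did not pass. NRF1 was lower at -0.44, and YY1 and SP1, both at -0.06, did not pass. MYC and MAX, which bind the E-box as a pair, were the 2 regulators called higher. MYC had 345, 312 and 335 CPM in FIR libraries, against 268, 278 and 285 CPM in untreated libraries, a log2 fold change of 0.25 (SE 0.07, edgeR adjusted p = 0.0079). MAX had 83.4, 81.4 and 83.4 CPM in FIR libraries, against 67.1, 69.8 and 65.4 CPM in untreated libraries, a log2 fold change of 0.29 (SE 0.08, edgeR adjusted p = 0.0047). Neither overlapped between groups.

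The changes of genes with and without each of the 7 motifs are given as medians, with no test. The median log2 fold change was -0.28 in the 28 genes with the ETS letters and -0.36 in the 38 without. It was -0.40 in the 17 genes with the YY1 letters and -0.29 in the 49 without. The widest gap was that of the CCAAT box, with -0.17 in 22 genes with it and -0.36 in 44 without. The CHR element gave -0.23 in 5 genes and -0.32 in 61 without, the SP1 letters -0.29 in 40 and -0.34 in 26, and the E-box -0.33 in 10 and -0.30 in 56. MRPL17, the 1 gene with the NRF1 palindrome, had -0.24, and the other 65 a median of -0.31. Of the 6 genes whose ETS matches are printed above, those with 1 match were MRPL47 at -0.66, MRPS26 at -0.62 and MRPL33 at 0.42. MRPL20 and MRPL27, with 2 matches, had -0.40 and 0.05, and MRPS34, with 3, had -0.31.

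Many of the genes have a neighbour that starts close by and runs the other way. Such a head-to-head neighbour lies on the opposite strand and starts at most 1000 bases upstream of the gene's own start. Neighbours whose start lies inside the gene were kept only up to 100 bases from the gene's start. By this rule one was found for 22 of the 74 genes, or 29.7%, against 15.6% of all genes of the table. Of the neighbours 9 were lower, 2 higher and 11 not called. Over all genes 48.7% were called, 23.4% lower and 25.4% higher, so the share of neighbours called was near that of all genes. MRPL46 and MRPS11, on chromosome 15 with starts 63 bases apart, are neighbours of each other and were both lower, at -0.36 and -0.40. Both are therefore counted in the family and also among the 9 lower neighbours.

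Several neighbours, named here after their values were seen, differed far more than the ribosomal gene beside them. SKA3, a kinetochore gene 106 bases from MRPL57, had a log2 fold change of -5.36, whereas MRPL57 had -0.23. EME1, a DNA repair nuclease gene 13 bases from MRPL27, had -3.46, whereas MRPL27 had 0.05 with a 95% interval of -0.13 to 0.24. MRPL18 and TCP1, a chaperonin gene 109 bases away, had like values of -0.70 and -0.67. MRPS34 and EME2, 52 bases apart, had calls in opposite directions, at -0.31 and 0.43.

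Exons of 27 of the 74 genes overlap another row of the table, 21 of them a row on the opposite strand, and the strand setting of the counting is not given in the sources used here. The overlap took at least 20% of the exon length in 6 genes: MRPL33, MRPL43, MRPL51, MRPS18A, MRPS18C and MRPS25. MRPL51 shares 27.6% with NCAPD2, a condensin gene with a log2 fold change of -2.10, whereas MRPL51 had -0.50, and the part of shared reads in that value was not tested. MRPS18C shares 40.2% with ABRAXAS1, which was higher at 0.48 while MRPS18C was lower. Pseudogenes of MRPL37, MRPL45, MRPS18A and MRPS31 have rows of their own, and how reads that fit both a gene and its copy were assigned is not given in the sources used here.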

How the data were processed

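RNA sequencing of 3 FIR and 3 untreated LNCaP libraries gave 1 table of 16311 genes on hg38. Per the file headers, it holds the authors' raw counts for each gene and library, deposited beside their log2 fold changes, log2 CPM, log2 RPKM, p-values and adjusted p-values. Bcl2fastq, STAR 2.5, featureCounts, Subread 1.6.2 and edgeR 3.20.8 are named in the submitters' processing notes. For settings, annotation release and strand the answer is the same: not given in the sources used here. Columns were matched to samples by name, and 0 were left unmapped.

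All results come from the counts, scaled by TMM and fitted with glmQLFit and glmQLFTest in edgeR 4.0.16 under R 4.3.3, with group as the sole term and Benjamini-Hochberg adjustment across the 16311 genes. With a minimum count of 10, filterByExpr kept every gene. Each SE was taken as the size of the log2 fold change over the root of its F statistic. RPKM is the scaled CPM per kilobase of the deposited exon length. The script was tested on simulated data. Libraries of a group all differed by more than sampling noise, so none was treated as a repeat.

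The family and the gene lists were chosen with earlier results of these data known. Every gene of the family may be named. From each related list the named genes are the 2 called ones that changed most and averaged 1 CPM or more, and all genes where at most 7 were measured. Any gene outside this rule was picked with its values in view. Libraries were not paired by replicate number in the main fit, and the labels do not say whether same-numbered cultures were matched. The settings altered were the scaling (RLE, upper-quartile, library size), the tool (DESeq2 1.42.0, and limma-voom from limma 3.58.1), the filter (none, or 1 CPM in 3 libraries), a replicate block, the subunit assignment by structure, and each library left out in turn.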

Additional observations from a re-analysis of the deposited data

How the results depend on the processing

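Over the 14 alternative settings 34 of the 46 called genes kept their call, 5 of the 28 others gained one in some setting, and 0 reversed. The setting without a filter could not differ from the main fit, in which filterByExpr kept every gene. Leaving out 1 library at a time gave 37 to 47 genes called lower, 27 to 33 of the large and 10 to 14 of the small subunit, and 1 to 2 higher, all of them large subunit genes. The same fits called 3368 to 3976 of all 16311 genes lower and 3401 to 4014 higher. The medians then ran from -0.37 to -0.33 for the large and from -0.30 to -0.21 for the small subunit, with -0.21 without the first untreated library and -0.23 without the third FIR library. Under the other settings 41 to 48 genes were lower and 2 higher, while of all genes tested 3668 to 4346 were lower and 3685 to 4162 higher. Library-size scaling, which moved the median of all genes to -0.05, gave medians of -0.41 and -0.34. With the replicate number as a block 41 genes were lower, 29 large and 12 small, and MRPL15, MRPL10 and MRPL57 lost their call, at adjusted p of 0.0523, 0.0520 and 0.0541. Same-numbered libraries had correlations of deviations of 0.05, -0.07 and -0.09. Libraries of unlike number were not set beside them, so no conclusion is drawn on a shared effect of the number. These values cannot tell whether same-numbered cultures were matched, and the labels do not say. AURKAIP1 gained a call under library-size scaling and without the third untreated library, and KIAA0391 lost its call without the second untreated or the first FIR library. The causes were not tested. Among the genes depth limits most, MRPL38 and MRPS36 have the widest intervals.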

Other observations

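Genes of the family with a bacterial homologue and genes without one were set side by side, with MRPS36 in neither. Of 44 genes with a homologue 28 were lower and 1, MRPL33, was higher, with a median log2 fold change of -0.35. Of 29 without a homologue 16 were lower and 1, MRPL49, was higher, with a median of -0.29. In the large subunit by structure 21 of 30 genes with a homologue and 11 of 20 without were lower, with medians of -0.38 and -0.28. In the small subunit 7 of 14 with a homologue and 5 of 9 without were lower, with medians of -0.26 and -0.29. Over all genes 23.4% were called lower. The differences between these sets were not tested.

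Across the 74 genes, which are not independent replicates and share the same 6 libraries, the log2 fold change had a Spearman rho of -0.12 with the level per length in untreated libraries and 0.05 with the exon length. The spread between libraries was alike in both groups, with a median coefficient of variation of 5.93% in FIR libraries and 6.13% in untreated libraries.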
